A study of Rattus norvegicus with 16 samples.

Results

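The interferon response genes are 41 genes that interferons induce, or that carry and regulate the response, listed by name with the Ifitm family left out. Their RNA was read from Affymetrix Rat Gene 1.1 ST arrays, on which each row summarises the probes of a gene. An array row that named a single gene was found for 38 of the 41, each with 1 row, out of 17245 genes tested. Xaf1, Parp14 and Eif2ak2 had no such row and were not analysed here. The list was fixed by gene name, and no measured value enters its rule, but it was chosen with earlier results of these data known.

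The RNA came from cells that stuck to titanium implants retrieved from the tibiae of male Sprague Dawley rats. The AT-I surface carries nanoscale features, and the AT-II surface is microrough and lacks them. Each of 8 rats had AT-I implants on one side and AT-II implants on the other, 2 in each tibia pooled as a sample, and 4 rats were used for each of day 2 and day 4. Both surfaces were sampled on both days, which makes 4 groups of 4 arrays. All groups share the operation under ketamine and xylazine, lidocaine with epinephrine at the site, and injections of ketoprofen, an anti-inflammatory analgesic. No sample without an implant was analysed here, the labels give no age for the rats, and they name the cells only as tibial, so each sample is a mixture of cell types. The labels do not say which numbered sample came from which rat, so tests between surfaces leave out any matching by animal.

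Levels are log2 expression values made by robust multi-array averaging (RMA), and every difference and fold rests on a logarithm base that was inferred. Values of one gene are set against that gene in other samples and not against another gene. Replicates 2 and 3 of the AT-II day 2 group were the closest of 120 pairs of arrays, with an SD of difference of 0.109 over variable bright rows where every other pair had at least 0.294, and were averaged as 1 sample, leaving 15. Markers of several cell types were measured in all groups, without a test of signal over background. The mean level of 8 osteoblast markers lay between 7.19 and 8.72 in the day 2 samples and between 10.15 and 10.93 at day 4, that of 8 neutrophil markers between 10.15 and 11.07 over all samples, and that of 10 monocyte and macrophage markers between 9.31 and 10.34. The interquartile range of an array over all genes, a measure of how far its values spread, was 2.49 to 2.98 on AT-I and 3.05 to 3.41 on AT-II at day 2, and 2.60 to 3.41 on AT-I and 3.10 to 3.42 on AT-II at day 4. A group therefore differs from another in this spread as well as in its label, which most concerns AT-I at day 2.

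Type I interferons act through the receptor of Ifnar1 and Ifnar2 chains on the kinases Jak1 and Tyk2. These activate a transcription factor complex that holds Stat2 and Irf9 and binds a promoter element called the interferon-stimulated response element (ISRE), while interferon gamma acts through the gamma-activated site (GAS). The induced proteins block viral replication, conjugate the ubiquitin-like Isg15 to other proteins, sense foreign nucleic acid, recruit lymphocytes and present antigen. In bone, interferons are known to restrain osteoclast formation, and injury can start the response without a virus.

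RefSeq promoter windows on the GRCr8 build, from 250 bases before to 50 after the annotated start, were found for 34 of the 41 genes by symbol. The ISRE core was searched as GAAA, any 2 bases and GAAA again, and the GAS as TTCNNNGAA, on both strands. The ISRE core letters were in 20 of 34 windows (58.8%) and in 1312 of all 33469 windows of that length (3.92%). GAS letters were in 10 of 34 (29.4%) against 2970 of all windows (8.87%). Both were in 5 (14.7% against 0.514%), and the motif letters overlapped each other only in Bst2. Zbp1, Ifit2, Oas2, Usp18, Dhx58, Isg15 and Mx2 had no entry. These windows describe letters and not bound sites.

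Printed first are the 250 bases before the start of Ifit3 and Psmb8, the members that changed between days and held the ISRE core. Ifit3 lies at chr1:241527076-241527325 on the plus strand and Psmb8 at chr20:4657032-4657281 on the minus strand. Capitals mark the ISRE core. In Ifit3 it runs from 44 to 35 bases before the start, and in Psmb8 it spans the start, so that only its first letters are in this stretch.
Ifit3: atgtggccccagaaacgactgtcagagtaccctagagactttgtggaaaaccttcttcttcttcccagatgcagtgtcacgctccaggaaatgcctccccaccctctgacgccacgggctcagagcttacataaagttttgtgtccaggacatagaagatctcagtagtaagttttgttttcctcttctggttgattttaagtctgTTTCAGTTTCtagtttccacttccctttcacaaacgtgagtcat
Psmb8: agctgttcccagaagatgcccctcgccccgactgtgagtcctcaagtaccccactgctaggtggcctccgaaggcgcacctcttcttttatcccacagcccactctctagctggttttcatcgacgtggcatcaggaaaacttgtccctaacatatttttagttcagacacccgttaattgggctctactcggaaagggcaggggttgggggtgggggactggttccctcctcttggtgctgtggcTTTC

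The next lines show the same core with 8 bases on each side where the window allows, for Psmb8 across its start and for 6 other members named below, so that the match and its neighbours can be read beside the levels below.
Psmb8, chr20:4657018-4657043, minus strand: gctgtggcTTTCGCTTTCacttcctt
Irf7, chr1:205800075-205800100, minus strand: agtttaggTTTCATTTTCccgagacg
Ifih1, chr3:67684010-67684035, minus strand: agagaatcGAAACAGAAAccgatgtg
Oasl2, chr12:47383319-47383344, minus strand: agctttggTTTCAGTTTCcaggcttg
Gbp2, chr2:234005688-234005713, plus strand: ttttttagTTTCACTTTCattgtctt
Cxcl10, chr14:15988816-15988840, plus strand: cgctttgGAAAGTGAAActtaactc
Tap1, chr20:4668647-4668672, minus strand: gtggctgcTTTCGGTTTCttcttcct

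The transcription factors Irf1 and Irf9 held GAS letters and no ISRE core, shown with capitals on the GAS match.
Irf1, chr10:38417785-38417809, plus strand: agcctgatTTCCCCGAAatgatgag
Irf9, chr15:33065729-33065753, plus strand: cacgtgatTTCTAGGAActgcacct

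The windows of Oasl and Ifi35, which also changed between days, held neither set of letters. Among measured genes, the 17 with an ISRE core had a median day 4 minus day 2 difference on AT-I of -0.37, the 14 with a window and no core had -0.44, and the 7 with no window had -0.56. On AT-II these medians were -0.28, -0.27 and -0.34. Whether the letters go with the differences was not tested.

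**Figure D1:**
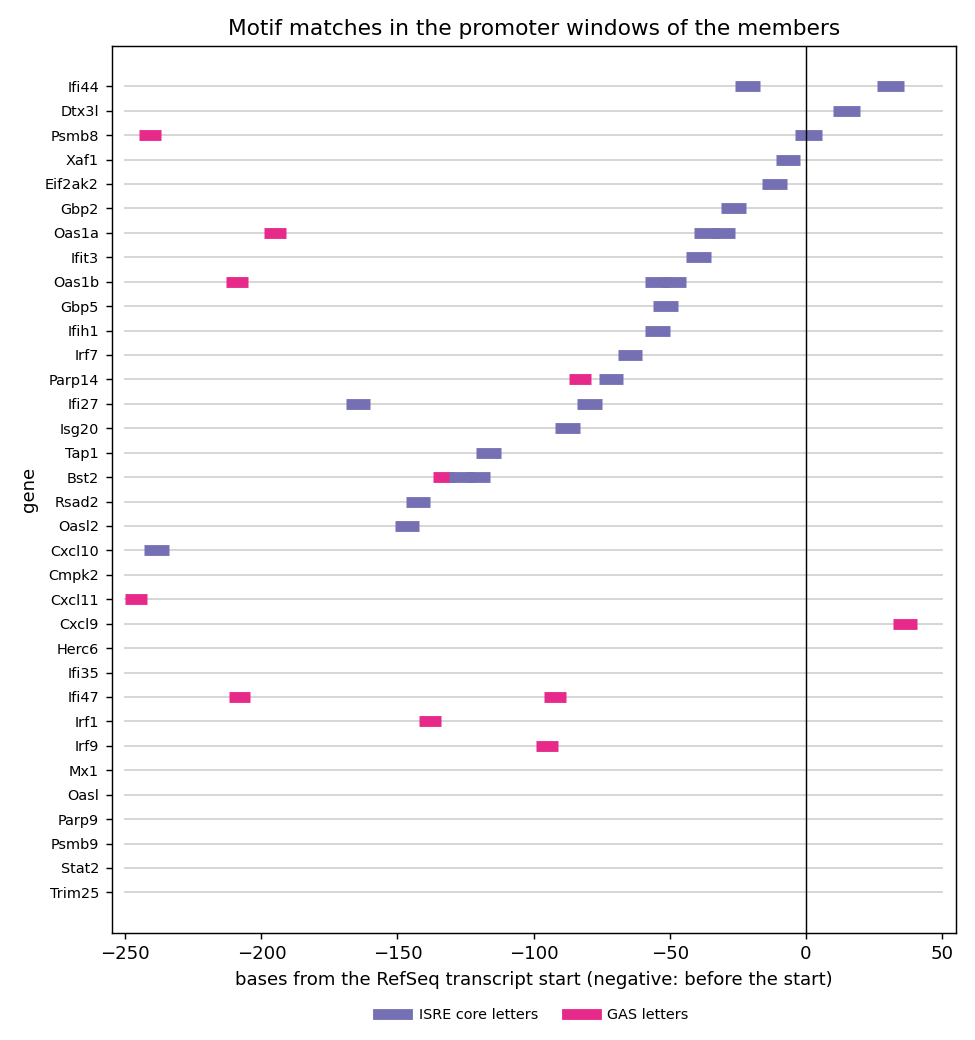
Positions of ISRE core and GAS letters in the 34 promoter windows, in bases from the RefSeq transcript start (x axis, negative before the start) for each gene (y axis). Violet bars are ISRE core matches, pink bars GAS matches, and grey lines the windows. The 20 genes with an ISRE core hold it between 243 bases before the start and 36 after, and 9 windows hold neither.

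On AT-I, day 4 was set against day 2 to ask what happened over time in cells on nanoscale features, and members passed the test here. By limma with Benjamini-Hochberg adjustment over all genes, 5 of 38 were lower at day 4 at an adjusted p under 0.05 and 0 were higher. These were Isg15, Ifit3, Oasl, Ifi35 and Psmb8, from the ISG15, antiviral and antigen processing groups. Over all genes 2.66% passed as lower, 8.84% as higher and 11.5% in either direction. Leaving out 1 sample gave 2 to 8 members, namely 2 (Isg15 and Psmb8) when AT-I day 2 replicate 1 was removed, 3 for AT-I day 4 replicate 4 and 8 for AT-I day 4 replicate 2. Of all genes, 1.52%, 0.968% and 1.58% passed as lower in these fits, in the same order. In the fit to all samples, the same 5 were the members whose day 4 samples all lay below all day 2 samples, a separation seen in 4.01% of all genes (11.3% as higher). The other members mostly leaned the same way without passing: 36 of 38 differences were below 0, with a median of -0.44 where all genes had -0.05. Of all 17245 genes, 9524 were below 0. In these bulk samples, fewer cells of a type and less RNA per cell cannot be told apart.

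On AT-II, 0 of 38 passed by limma in either direction, where 0.203% of all genes passed as lower, 3.13% as higher and 3.33% in either direction. At an unadjusted p under 0.05, 2 members were lower and 0 higher on AT-II, near the 4.8% of all genes that were lower (8.18% higher). On AT-I 18 members were lower and 1 higher by that measure, where 11.9% of all genes were lower and 16% higher. The median difference on AT-II was -0.27 (all genes -0.05), and 32 of 38 were below 0, as were 10303 of all 17245 genes. The groups did not overlap for 5 members, Psmb8, Ifi35, Stat2, Irf1 and Dhx58, all lower at day 4, where 7.63% of all genes were separated that way and 8.74% as higher. The count passing on AT-II was 1, Psmb8, when the 16 arrays were counted separately, where 0.632% of all genes passed as lower. The count was also 1 in other settings listed in the closing section.

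**Figure D2:**
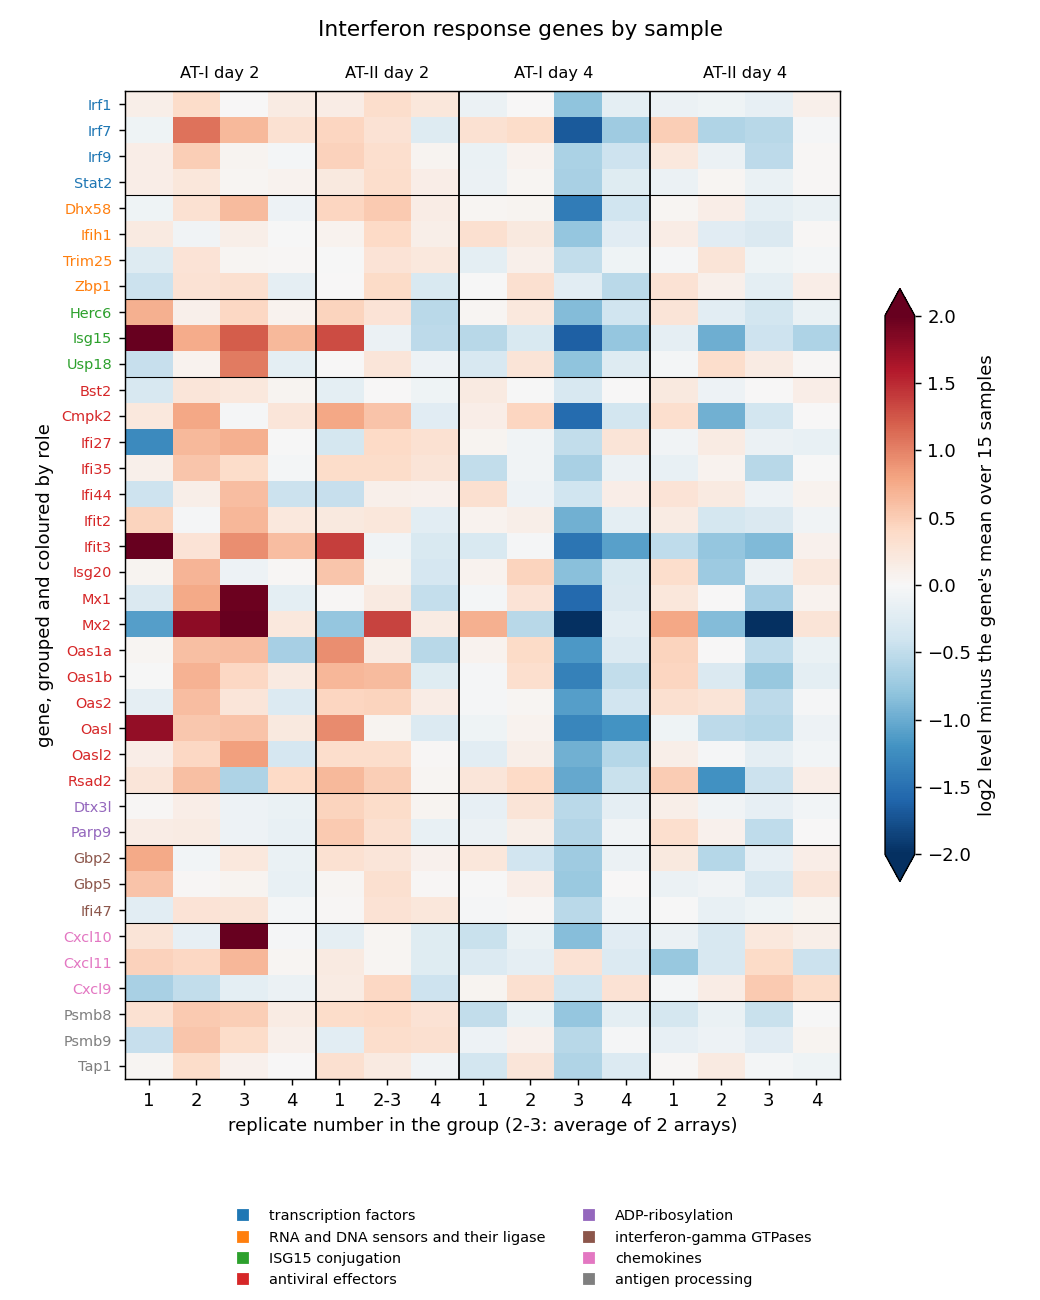
Level of each of the 38 measured genes (rows, coloured by role) in each of 15 samples (columns, by group and replicate number), as log2 level minus the gene's mean over the samples (colour scale from -2 to 2, values beyond it in the end colours). AT-I day 4 replicate 3 is blue in most rows, and Isg15, Ifit3 and Oasl are darkest red in AT-I day 2 replicate 1.

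Among the transcription factors, 0 of 4 passed on either surface. All 4 were lower at an unadjusted p under 0.05 on AT-I, as were 11.9% of all genes. Irf1, which interferon gamma induces, differed by -0.44 ± 0.15 (SE, adjusted p = 0.0797) on AT-I and by -0.31 ± 0.17 (adjusted p = 0.474) on AT-II. Its day 4 samples on AT-I were at 8.63, 8.76, 7.94 and 8.55 and its day 2 samples at 8.86, 9.11, 8.75 and 8.91, so the groups met at 8.76 and 8.75. Stat2, a subunit of the factor that binds the ISRE, differed by -0.36 ± 0.13 (adjusted p = 0.0949) and -0.27 ± 0.14 (adjusted p = 0.46).

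Irf9, the DNA-binding subunit of that factor, differed by -0.44 ± 0.18 (adjusted p = 0.132) on AT-I and -0.39 ± 0.20 (adjusted p = 0.448) on AT-II. Irf7, which amplifies type I interferon production, differed by -0.91 ± 0.40 (adjusted p = 0.148) and -0.33 ± 0.43 (adjusted p = 0.832). Irf7 was the most variable of the 4. On AT-I it stood at 8.74, 9.91, 9.47 and 9.13 at day 2 and at 9.14, 9.20, 7.16 and 8.12 at day 4, where replicate 3 was the lowest of all samples and 2 samples lay within the day 2 range. After rescaling of the arrays 3 of these 4 did pass. Irf1, Irf9 and Stat2 were lower on AT-I when quantile normalization was repeated and when arrays were centred on their median. Of all genes, 3.71% passed as lower with quantile normalization and 8.75% with centring, beside 2.66% as reported.

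Of the sensors, Ifih1 (MDA5) detects long double-stranded RNA, Dhx58 (LGP2) modulates it, Zbp1 binds Z-form nucleic acid, and Trim25 is the ubiquitin ligase that activates RIG-I. None of these 4 passed in limma on either surface, with 1 lower at an unadjusted p under 0.05 on AT-I and 0 on AT-II. By that measure 11.9% of all genes were lower on AT-I and 4.8% on AT-II. Dhx58 had the largest difference, -0.61 ± 0.26 (adjusted p = 0.147) on AT-I and -0.41 ± 0.29 (adjusted p = 0.629) on AT-II. It was at 6.70, 6.72, 5.25 and 6.26 at day 4 on AT-I, with replicate 3 well below the others, and at 6.57, 6.97, 7.29 and 6.55 at day 2. The AT-I difference was -0.28 without AT-I day 4 replicate 3. Ifih1 differed by -0.18 ± 0.20 and -0.28 ± 0.21, and Trim25 by -0.19 ± 0.15 and -0.13 ± 0.16, on AT-I and AT-II. These differences were of the order of their standard errors.

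The ISG15 group holds the modifier itself, Herc6, a ligase of the HERC family, and Usp18, the protease that removes Isg15 and restrains the type I receptor. Isg15 was at 10.08, 8.61, 9.09 and 8.52 in AT-I day 2 and at 7.32, 7.57, 6.24 and 7.10 in AT-I day 4. All 4 day 4 samples lay below all 4 day 2 samples, the nearest being at 7.57 and 8.52. Isg15 fell by 2.02 ± 0.40 (SE) on AT-I, a level 4.05-fold lower (limma, adjusted p = 0.0039).

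On AT-II Isg15 was at 9.18, 7.75 and 7.35 at day 2, the second being the averaged sample, and at 7.69, 6.90, 7.46 and 7.26 at day 4. These groups overlapped, and a single day 2 sample, replicate 1, stood above the rest. The difference was -0.77 ± 0.43 (adjusted p = 0.503), falling to -0.22 if that sample is left out. On AT-I, leaving out AT-I day 2 replicate 1 gave -1.68 (adjusted p = 0.0134) and leaving out AT-I day 4 replicate 3 gave -1.75 (adjusted p = 0.0105). Isg15 passed on AT-I in all 28 settings run for it.

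Herc6 differed by -0.58 ± 0.25 (adjusted p = 0.148) on AT-I and -0.17 ± 0.27 (adjusted p = 0.87) on AT-II. Usp18 differed by -0.39 ± 0.27 (adjusted p = 0.344) and 0.07 ± 0.29 (adjusted p = 0.962). In this group Isg15 was therefore the 1 of 3 that passed on AT-I, and 0 of 3 passed on AT-II. Of all genes, 2.66% and 0.203% passed as lower on these surfaces. That Isg15 changed more than its ligase and protease was not tested.

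**Figure D3:**
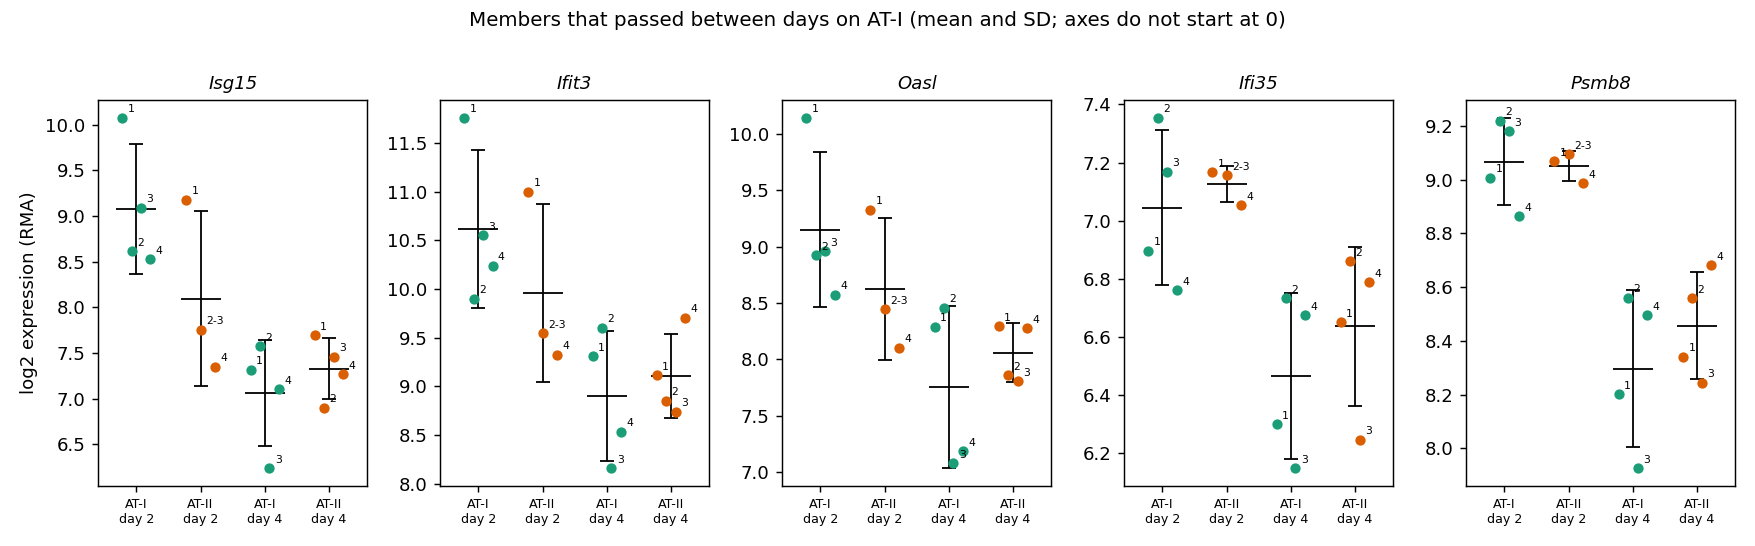
Log2 level (y axis, a separate scale for each gene that does not start at 0) of the 5 members lower at day 4 on AT-I, in the 4 groups (x axis). Points are samples with replicate numbers, green for AT-I and orange for AT-II, horizontal lines are group means and bars are SD. In each panel the AT-I day 4 points lie below all AT-I day 2 points.

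The antiviral effectors were the largest group, with 16 of 17 measured. At day 4, 3 of 16 were lower on AT-I, where 2.66% of all genes passed as lower. On AT-II 0 passed, where 0.203% of all genes passed as lower. Ifit3 belongs to the tetratricopeptide proteins that restrain viral RNA translation. In AT-I it was at 11.76, 9.90, 10.55 and 10.24 at day 2 and at 9.31, 9.60, 8.16 and 8.54 at day 4. The groups did not overlap, and replicate 1 was the highest of all samples at day 2. Ifit3 fell by 1.71 ± 0.43 (limma, adjusted p = 0.0178), 3.27-fold.

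The call of Ifit3 did not outlast the removal of AT-I day 2 replicate 1, at -1.33 (adjusted p = 0.0562), or of AT-I day 4 replicate 4, at -1.59 (adjusted p = 0.0623). It was kept without AT-I day 4 replicate 3 (-1.46, adjusted p = 0.0387). On AT-II the Ifit3 levels were 11, 9.55 and 9.33 at day 2 and 9.12, 8.85, 8.74 and 9.71 at day 4. These overlapped, and the difference was -0.85 ± 0.47 (adjusted p = 0.481), or -0.33 with the high sample, AT-II day 2 replicate 1, removed.

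Oasl, an oligoadenylate synthetase-like protein, was at 10.14, 8.93, 8.96 and 8.57 in AT-I day 2 and at 8.29, 8.46, 7.08 and 7.19 in AT-I day 4. The nearest samples of the 2 days were close, at 8.57 and 8.46, while replicate 1 of day 2 stood more than a unit above the others. Oasl fell by 1.40 ± 0.37 (limma, adjusted p = 0.0224), 2.63-fold. Leaving out AT-I day 2 replicate 1 ended the call (-1.06, adjusted p = 0.0703), as did leaving out AT-I day 4 replicate 4 (-1.21, adjusted p = 0.0832) or both day 4 samples numbered 3 (-1.17, adjusted p = 0.0559). On AT-II it was at 9.33, 8.44 and 8.10 and then at 8.30, 7.86, 7.81 and 8.28, with a difference of -0.56 ± 0.40 (adjusted p = 0.63), or -0.21 with AT-II day 2 replicate 1 removed.

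Ifi35, an interferon-induced leucine zipper protein, was at 6.90, 7.35, 7.17 and 6.76 in AT-I day 2 and at 6.30, 6.73, 6.15 and 6.67 in AT-I day 4. It fell by 0.58 ± 0.17 (limma, adjusted p = 0.0392), and its groups came close, at 6.76 and 6.73. On AT-II it was at 7.17, 7.16 and 7.05 and then at 6.65, 6.86, 6.25 and 6.79, also without overlap, with -0.49 ± 0.19 (adjusted p = 0.229). Its call on AT-I was the least firm of the 5 and ended in 12 of 28 settings. It was lost without any 1 of AT-I day 2 replicates 1 (-0.63), 2 (-0.48) and 3 (-0.54), AT-I day 4 replicates 1 (-0.53) and 3 (-0.48), AT-II day 4 replicate 1 or the averaged AT-II day 2 sample (-0.58 for both), with adjusted p from 0.0517 to 0.103.

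The other effectors did not pass. Oasl2, a related synthetase, differed by -0.67 ± 0.23 (adjusted p = 0.0758) on AT-I and Ifit2 by -0.56 ± 0.22 (adjusted p = 0.113). Mx1, a dynamin-like GTPase that blocks viral ribonucleoproteins, differed by -0.96 ± 0.44 (adjusted p = 0.173) on AT-I and -0.01 ± 0.48 (adjusted p = 0.998) on AT-II, and Oas2 by -0.47 ± 0.26 and -0.34 ± 0.28. Rsad2 (viperin), Cmpk2, Isg20, Oas1a, Oas1b, Bst2 (tetherin), Ifi27, Ifi44 and Mx2 had differences from -1.30 (Mx2) to 0.01 (Ifi44) on AT-I. On AT-II the 16 effectors ranged from -0.85 (Ifit3) to 0.20 (Ifi44).

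Several effectors varied more within groups than between them. Mx2, singled out after its values were seen, had a within-group SD of 1.27, at the 99.9th percentile of all genes. It was at 6.47, 9.36, 9.82 and 7.78 in AT-I day 2, at 6.80, 8.93 and 7.74 in AT-II day 2, and at day 4 it was at 8.28, 7.02, 5.58 and 7.37 on AT-I and at 8.34, 6.70, 5.57 and 7.82 on AT-II. All 4 groups overlapped, and AT-I day 2 replicate 1 and both day 4 samples numbered 3 were low. Ifi27, also chosen after its values were seen, was at 7.82 in AT-I day 2 replicate 1 and at 9.75, 9.81 and 9.10 in the other samples of that group. The sample highest in Isg15, Ifit3 and Oasl was thus the lowest of its group in Mx2 and Ifi27. Over the 38 members the median within-group SD was 0.349, where all genes had 0.230.

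**Figure D4:**
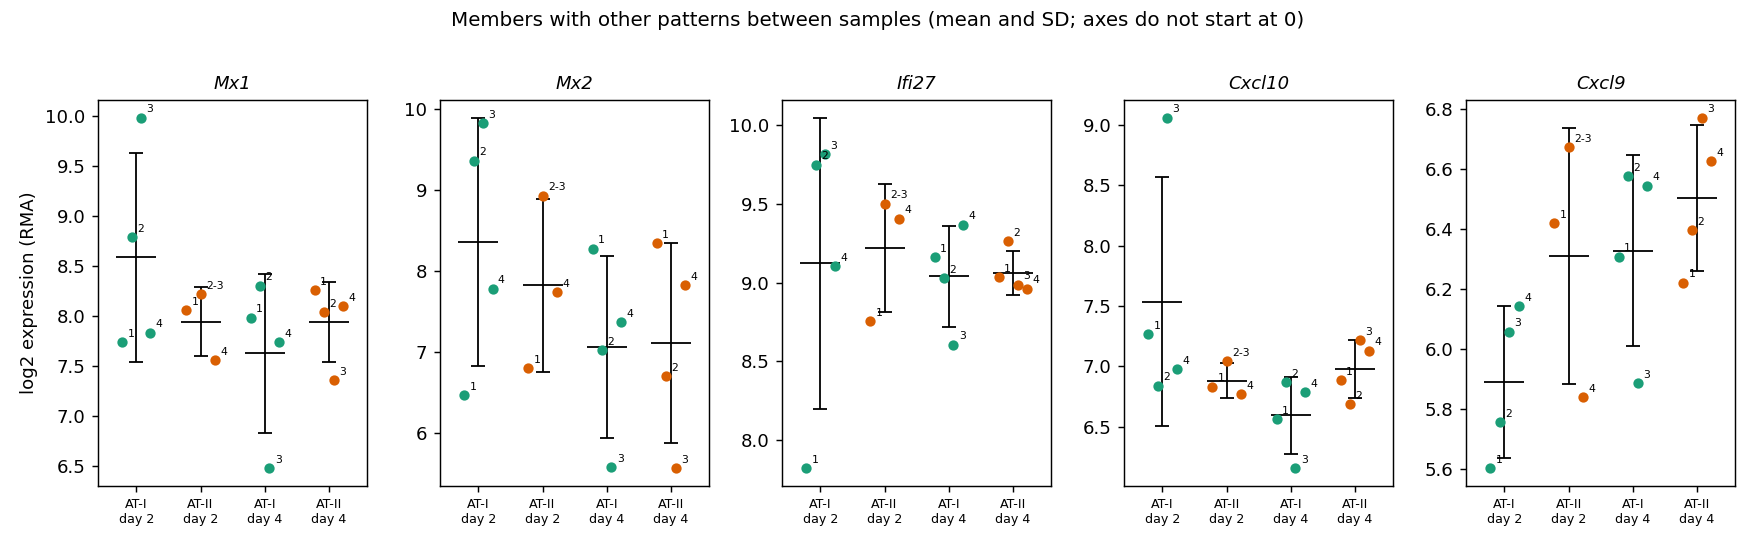
Log2 level (y axis, separate scales that do not start at 0) of Mx1, Mx2, Ifi27, Cxcl10 and Cxcl9 in the 4 groups (x axis). Points are samples with replicate numbers, green for AT-I and orange for AT-II, with mean and SD. AT-I day 2 replicate 3 is the highest sample for Mx1, Mx2, Ifi27 and Cxcl10, and AT-I day 2 replicate 1 is the lowest of its group for Mx2 and Ifi27.

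The ADP-ribosylation pair of Parp9 and its partner ligase Dtx3l, which bind each other and enhance interferon signalling, did not pass on either surface. Dtx3l differed by -0.14 ± 0.15 (adjusted p = 0.561) on AT-I and -0.33 ± 0.16 (adjusted p = 0.417) on AT-II, and Parp9 by -0.18 ± 0.19 (adjusted p = 0.565) and -0.25 ± 0.21 (adjusted p = 0.703). The GTPases that interferon gamma induces, Gbp2, Gbp5 and Ifi47, act on membranes around intracellular pathogens. Of these 3, 0 passed on either surface in limma, with 0 at an unadjusted p under 0.05. By that measure 11.9% of all genes were lower on AT-I and 4.8% on AT-II. Gbp2 differed by -0.45 ± 0.23 (adjusted p = 0.209) on AT-I and -0.31 ± 0.24 (adjusted p = 0.675) on AT-II, and Ifi47 by -0.22 ± 0.15 (adjusted p = 0.336) and -0.22 ± 0.16 (adjusted p = 0.625).

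The chemokines Cxcl9, Cxcl10 and Cxcl11 share the receptor Cxcr3 of activated T cells. They did not move as a group. Cxcl10 was at 7.26, 6.84, 9.06 and 6.98 in AT-I day 2 and at 6.56, 6.87, 6.16 and 6.79 in AT-I day 4, so that 1 day 2 sample, replicate 3, stood far above all others. Its difference of -0.94 ± 0.36 (adjusted p = 0.101) was -0.43 without that sample (adjusted p = 0.153), and on AT-II it was 0.10 ± 0.39 (adjusted p = 0.956).

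Cxcl11 differed by -0.50 ± 0.21 (adjusted p = 0.14) on AT-I and -0.28 ± 0.23 (adjusted p = 0.696) on AT-II. Cxcl9, which depends most on interferon gamma, was the one member with a higher value at an unadjusted p under 0.05. It was at 5.60, 5.76, 6.06 and 6.14 in AT-I day 2 and at 6.31, 6.58, 5.89 and 6.54 in AT-I day 4, overlapping only through day 4 replicate 3. The difference was 0.44 ± 0.20 (adjusted p = 0.169) on AT-I and 0.19 ± 0.22 (adjusted p = 0.799) on AT-II. Cxcl9 is among the members with the lowest values on these arrays, where small differences are least certain.

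In antigen processing, Psmb8 and Psmb9 are subunits of the immunoproteasome, and Tap1 carries peptides into the endoplasmic reticulum. Psmb8 was at 9.01, 9.22, 9.18 and 8.86 in AT-I day 2 and at 8.20, 8.56, 7.93 and 8.50 in AT-I day 4. Both groups were tight and did not overlap. Psmb8 fell by 0.77 ± 0.15 (limma, adjusted p = 0.00307), 1.71-fold, the smallest p of the 38, and it passed in all 28 settings, at -0.65 (adjusted p = 0.00719) without AT-I day 4 replicate 3.

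On AT-II Psmb8 was at 9.07, 9.10 and 8.99 at day 2 and at 8.34, 8.56, 8.24 and 8.68 at day 4, again without overlap. The difference was -0.59 ± 0.16 (adjusted p = 0.0556), just outside the threshold. Tap1 differed by -0.37 ± 0.16 (adjusted p = 0.148) on AT-I and -0.12 ± 0.17 (adjusted p = 0.854) on AT-II, and Psmb9 by -0.29 ± 0.20 (adjusted p = 0.361) and -0.26 ± 0.22 (adjusted p = 0.701). Of this group, 1 of 3 passed on AT-I and 0 of 3 on AT-II, where 2.66% and 0.203% of all genes passed as lower.

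**Figure D5:**
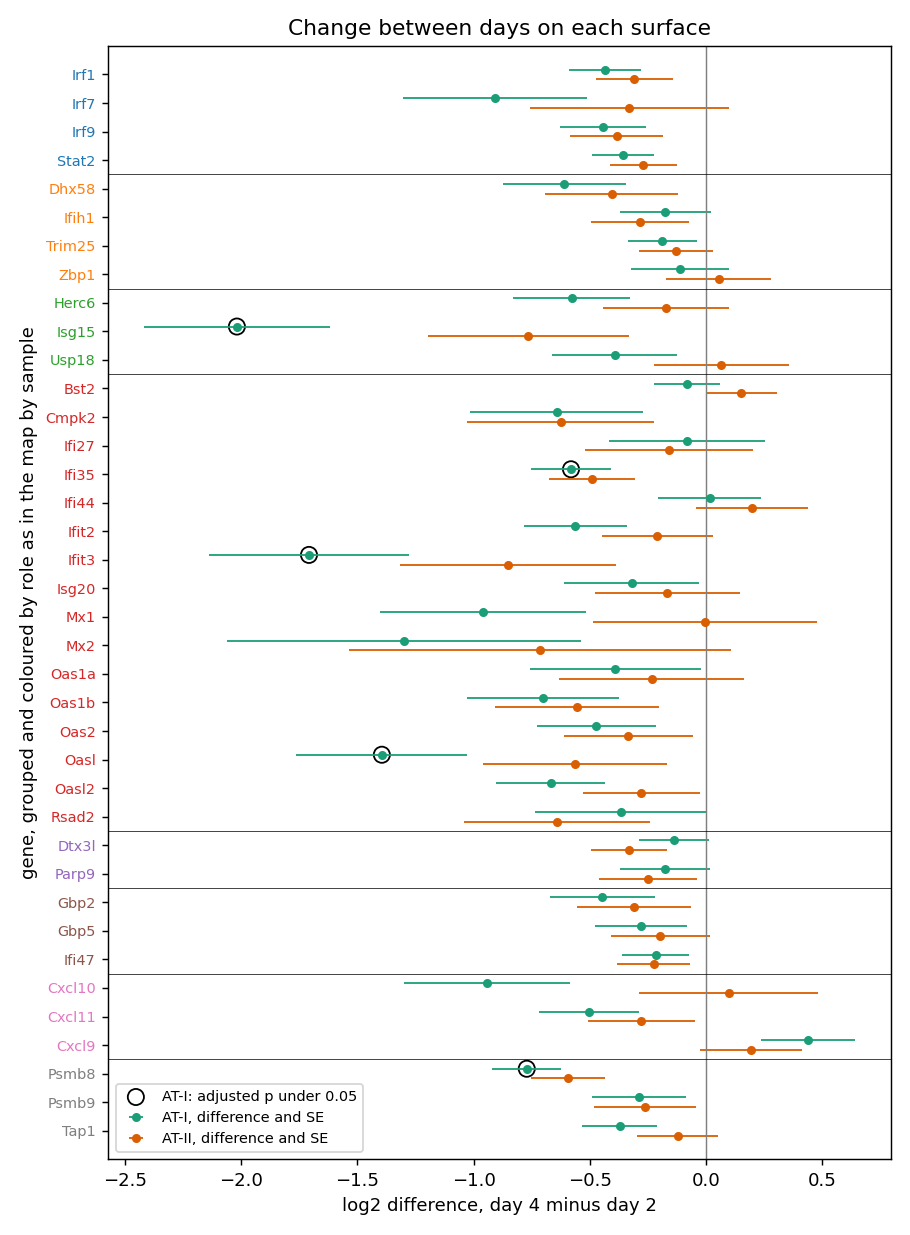
Log2 difference, day 4 minus day 2 (x axis), of each of the 38 members (y axis, grouped by role), with SE bars, green for AT-I and orange for AT-II. Black rings mark the 5 members at an adjusted p under 0.05 on AT-I. Most points lie left of 0 on both surfaces, with Isg15, Ifit3 and Oasl farthest left on AT-I.

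The difference between the day changes of the surfaces tests directly whether AT-I and AT-II parted over time. By limma, 0 of 38 members and 0% of all genes passed, with 1 member, lower, and 707 genes (1.55% lower, 2.55% higher) at an unadjusted p under 0.05. That member was Isg15, whose change on AT-I minus that on AT-II was -1.25 ± 0.59 (adjusted p = 0.924). The value was -1.04 ± 0.53 for Cxcl10 and -0.95 ± 0.65 for Mx1. Of the other members that passed on AT-I, it was -0.85 ± 0.63 for Ifit3, -0.83 ± 0.54 for Oasl, -0.18 ± 0.22 for Psmb8 and -0.09 ± 0.25 for Ifi35. The median over the members was -0.15 (all genes 0.03), and without AT-I day 4 replicate 3 it was 0.03. A call on AT-I and none on AT-II is thus not shown to be a difference between the surfaces.

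Between surfaces at day 2, the question was whether nanoscale features altered the early response, and 0 of 38 members and 0 of 17245 genes passed in limma. At an unadjusted p under 0.05, 1 member was higher on AT-I and 0 were lower, where 12.5% of all genes were higher and 14.8% lower. Isg15 was the member, with 0.98 ± 0.43 (adjusted p = 0.168), a 1.97-fold higher mean on AT-I, and its groups overlapped since AT-II day 2 replicate 1 at 9.18 exceeded 3 of the AT-I samples. Ifit3 differed by 0.65 ± 0.47 (adjusted p = 0.336), Mx1 by 0.64 ± 0.48 (adjusted p = 0.358) and Oasl by 0.52 ± 0.40 (adjusted p = 0.363). These values moved with single samples: leaving out AT-I day 2 replicate 1 gave 0.27 for Ifit3 and 0.19 for Oasl, and leaving out AT-II day 2 replicate 1 gave 1.18 and 0.88. Isg15 ranged from 0.61, without AT-II day 2 replicate 4, to 1.52, without AT-II day 2 replicate 1, and Mx1 from 0.18, with AT-I day 2 replicate 3 removed, to 0.92, with replicate 1 of that group removed. No member separated the groups, where 8.83% of all genes did as higher and 11.3% as lower.

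The remaining day 2 values were small or of either sign. Cxcl9 differed by -0.42 ± 0.22 (adjusted p = 0.214), Cxcl11 by 0.40 ± 0.23 (adjusted p = 0.255), Dtx3l by -0.30 ± 0.16 (adjusted p = 0.227) and Psmb8 by 0.02 ± 0.16 (adjusted p = 0.944). The median was -0.02, with 16 members above 0 and 22 below, where 7286 and 9959 of all 17245 genes were. When all 16 arrays were counted separately, 6.04% of genes passed as higher on AT-I and 6.68% as lower, and still 0 of 38 members. Isg15 was the 1 member that passed with array weights and with 1 form of replicate block, where 9.93% and 4.75% of all genes passed as higher on AT-I. Array spread was lower in every AT-I day 2 array than in any AT-II day 2 sample, and with it as a covariate the Isg15 difference was 1.05 (adjusted p = 0.996).

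At day 4, 0 of 38 members differed between surfaces in limma and 0 had an unadjusted p under 0.05, where 687 genes did (2.54% higher, 1.44% lower) and 0% passed. The differences were small and leaned below 0, with 36 of 38 lower on AT-I (10029 of all 17245 genes) and a median of -0.17 (all genes -0.03). The median was 0.01 without AT-I day 4 replicate 3, so the lean was not there without that sample. Usp18 differed by -0.40 ± 0.27, Dhx58 by -0.39 ± 0.26, Oas2 by -0.38 ± 0.26 and Oasl2 by -0.37 ± 0.23, each at adjusted p = 0.913. No member separated the groups, where 0.789% of genes did as higher and 1.41% as lower. The 4 comparisons of days and surfaces share samples, so their values are not independent of each other.

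AT-I day 4 replicate 3 stood apart in these genes. It was the lowest of its group in 36 of 38 members (94.7%), although it was the lowest in 37.3% of all genes, and the lowest of all 15 samples in 31. The mean over the members was 7.20 in it and 7.78 to 8.16 in the other AT-I day 4 samples, while its array spread was 2.60 and theirs 2.94 to 3.41. It was also the lowest of its group in the means of 7 of 12 cell type marker lists, as AT-I day 2 replicate 3 was, with the osteoblast mean at 10.17 and the neutrophil mean, which was not its group's lowest, at 10.34. Without it, 4 members passed on AT-I, Isg15, Ifit3, Oasl and Psmb8. Of all genes, 6.2% passed as lower in that fit, beside 2.66% in the fit to all samples. The median difference of the members was then -0.25 in place of -0.44. Members that had not passed shrank without AT-I day 4 replicate 3, to -0.26 for Irf1, -0.22 for Stat2, -0.09 for Ifi47, -0.04 for Parp9 and -0.01 for Dtx3l. What set this sample apart was not tested.

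At day 2 the samples numbered 1 were high in another set of genes. The mean over 9 measured NF-kB target genes, which mark acute inflammation, was 11.66 in AT-I day 2 replicate 1 (9.06 to 9.51 in the other AT-I day 2 samples) and 11.02 in AT-II day 2 replicate 1 (8.50 to 8.78). The same samples were highest of their groups in Isg15, Ifit3 and Oasl, and were at 7.19 and 7.36 in osteoblast markers, the lowest of all samples. Of the NF-kB list, 3 of 9 fell on AT-I and 0 of 9 passed on AT-II, where 2.66% and 0.203% of all genes passed as lower. The 3 were Cxcl2 (-3.39 ± 0.99, adjusted p = 0.037), Ccl3 (-2.27 ± 0.70, adjusted p = 0.0476) and Ier3 (-1.63 ± 0.40, adjusted p = 0.0151). How these 3 calls depend on the samples numbered 1 was not examined here. The part of the NF-kB genes in the interferon result was not tested. Without both samples numbered 1, an alternative added after seeing the data, Isg15 (-1.68, adjusted p = 0.00195), Ifit3 (-1.33, adjusted p = 0.0197), Oasl (-1.06, adjusted p = 0.0435) and Psmb8 (-0.79, adjusted p = 0.00977) passed on AT-I. Of all genes, 1.73% passed as lower in that fit.

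Markers of other cell types moved less than those of bone. All 8 osteoblast genes rose on AT-I and 7 of 8 on AT-II, with 0 lower, and 4 of 6 and 2 of 6 stromal genes rose. All 8 neutrophil genes had differences below 0 on both surfaces, with medians of -0.37 on AT-I and -0.29 on AT-II beside -0.44 and -0.27 for the interferon members, and 1 of 8 passed as lower on AT-I and 0 on AT-II. Of 10 monocyte and macrophage genes, 2 passed as lower on AT-I and 0 on AT-II, with medians of -0.04 and -0.16. The neutrophil mean was 10.36 to 11.07 in AT-I day 2 and 10.15 to 10.63 in AT-I day 4, and the monocyte mean 9.31 to 10.18 and 9.71 to 10.07, so both overlapped between days. Of plasmacytoid dendritic cells, a main source of type I interferon, 1 of 4 markers was higher on AT-I, Tcf4. It was at 8.78 to 9.14 at day 2 and 9.41 to 9.57 at day 4. Siglech overlapped between days on AT-I, at 6.20 to 6.50 and 6.28 to 7.28, and 1 of the 4 differences was below 0. The list means were 6.68 to 7.34 at day 2 and 7.02 to 7.64 at day 4. Of T cell (8), NK cell (6) and B cell (3) genes 0 passed on either surface. Over all genes 2.66% passed as lower and 8.84% as higher on AT-I, and 0.203% and 3.13% on AT-II. The part of cell mixture in the interferon result was not tested.

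Upstream of the members, 30 of 44 listed names of the interferon pathway were measured, and 3 were lower and 0 higher on AT-I, with 0 passing on AT-II. Over all genes 2.66% passed as lower and 8.84% as higher on AT-I, and 0.203% and 3.13% on AT-II. Myd88, the adaptor of Toll-like and interleukin-1 receptors, was at 9.72, 9.61, 9.54 and 9.47 in AT-I day 2 and at 8.94, 9.38, 8.89 and 8.90 in AT-I day 4, without overlap. It fell by 0.56 ± 0.12 (limma, adjusted p = 0.0081) on AT-I and differed by -0.41 ± 0.13 (adjusted p = 0.134) on AT-II. Ikbke, a kinase that activates Irf3 and Irf7, fell by 0.36 ± 0.11 (adjusted p = 0.041), and Ifnk, a type I interferon, fell by 0.61 ± 0.18 (adjusted p = 0.041). Ifnk levels were low on the array, at 4.43 to 5.75 in AT-I, and its groups overlapped. The calls of Ikbke and Ifnk ended in 15 of 28 and 15 of 27 settings, that of Myd88 in 1.

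The measured ligands and receptors did not pass otherwise. Ifnb1 differed by -0.24 ± 0.16 (adjusted p = 0.354) on AT-I and 0.09 ± 0.18 (adjusted p = 0.913) on AT-II, Ifna4 by -0.42 ± 0.19 (adjusted p = 0.16) and -0.13 ± 0.20, and Ifng by -0.20 ± 0.17 and -0.07 ± 0.18. Of the receptors, Ifnar1 differed by -0.19 ± 0.13 on AT-I and -0.27 ± 0.14 on AT-II, Ifngr1 by -0.22 ± 0.14 and -0.22 ± 0.15, and Ifngr2 by -0.23 ± 0.13 and -0.18 ± 0.14. Ifnar2 and Tyk2 had no row naming them alone and were not analysed here.

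Of 40 further interferon-induced genes outside the list, 36 were measured. On AT-I 1 was lower, Slfn2, a growth regulator of lymphoid and myeloid cells, and 0 were higher, and 0 passed on AT-II. Over all genes 2.66% passed as lower on AT-I, a share near that of 1 of 36. Slfn2 was at 11.06, 10.25, 10.53 and 10.12 in AT-I day 2 and at 9.71, 9.94, 9.65 and 9.89 in AT-I day 4, again highest in AT-I day 2 replicate 1. It fell by 0.70 ± 0.17 (limma, adjusted p = 0.0168), and without AT-I day 2 replicate 1 the difference was -0.51 (adjusted p = 0.0395). Ifit1, a paralog of Ifit3 singled out after its values were seen, was high in the 4 samples numbered 1 on either day and surface. It was at 10.19 and 10.21 in the AT-I and AT-II day 2 samples numbered 1 and at 9.29 and 9.64 in those of day 4, while the other 11 samples lay between 6.11 and 6.93. Its day difference on AT-I was -0.52 ± 1.01 (adjusted p = 0.759). The days used different rats, and what the samples numbered 1 share was not tested. The median of the list was -0.20 on AT-I and -0.15 on AT-II, with 30 and 28 of 36 below 0. Of all 17245 genes, 9524 and 10303 were below 0.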

How the data were processed

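RNA of implant-adherent cells was hybridised to 16 arrays in 4 groups, taken from sample titles. Per the submitters' processing notes, the authors used RMA and Affymetrix Expression Console for the deposited log2 values. Their base is inferred. Software versions and the build: not given in the sources used here. Rows naming 1 gene were used (18644 of 29214), the brightest per gene, giving 17245 genes. limma 3.58.1 in R 4.3.3 (lmFit, eBayes, 4 group means, no covariate, two-sided, Benjamini-Hochberg over all genes, adjusted p under 0.05) was fitted to 15 samples, with AT-II day 2 replicates 2 and 3 averaged. It was tested on simulated data. The number of arrays limits precision. Each p-value sets a difference against the spread between samples within groups, estimated over the 4 groups together. The AT-I and AT-II samples of a rat were counted as independent.

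The members, lists, averaging and tests were chosen with earlier results of these data known. Named members are those that passed, plus the 2 smallest p per role group in each comparison of days or surfaces; others were chosen after their values were seen. Pathway genes were named where they passed, with ligands and receptors. There were 30 other settings: 15 left out a sample, 12 were other planned changes and 3 were added after seeing the data. Replicate numbers were not taken to pair samples. RefSeq promoters came from GRCr8. Python 3.11.15, pandas 2.3.3 and matplotlib 3.10.9 were used for counts and figures.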

Additional observations from a re-analysis of the deposited data

Results flagged for a closer look

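Among 114 gene and group combinations of 4 samples, 2 (1.75%) held a sample far from the others of its group by Dixon's criterion, where chance gives about 5%. Both were AT-I day 4 replicate 3. Ifi47, a GTPase that interferon gamma induces, was at 9.71 in it and at 10.20 to 10.27 in the other samples of the group. Gbp5, a guanylate-binding protein, was at 7.10 in it and at 7.83 to 7.98 in the others. Neither gene passed in any comparison.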

How the results depend on the processing

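Isg15 (-2.20 to -1.68) and Psmb8 (-0.99 to -0.65) passed on AT-I in all 28 settings run for the day comparison. The count of members lower at day 4 on AT-I, 5 as reported, was 12 with quantile normalization repeated (3.71% of all genes lower), 11 with arrays centred on the median (8.75%), 13 with array spread as a covariate (2.13%), and 3 with the compared groups alone (0.586%) or array weights (4.15%), beside 2.66% as reported. Leaving out 1 sample gave 2 (AT-I day 2 replicate 1, 1.52% of all genes lower) to 8 (AT-I day 4 replicate 2, 1.58%), with 3 without AT-I day 4 replicate 4 (0.968%). Beside the samples named above, Ifit3 lost its call with the spread covariate (adjusted p = 0.0529), Oasl with the compared groups alone (adjusted p = 0.0644) and array weights (adjusted p = 0.0518), Slfn2 with the compared groups alone (adjusted p = 0.0711) and the covariate (adjusted p = 0.0703), and Myd88 with the compared groups alone (adjusted p = 0.0548). Centring moved the median of all genes on AT-I from -0.05 to -0.21, and the share of passing genes that were higher from 76.9% to 39.7% (65.5% with quantile normalization).

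On AT-II the count was 1, Psmb8, in place of 0 with 16 arrays, 16 arrays less AT-I day 4 replicate 3 (added), quantile normalization, centring, a filter on low values (35 of 38 members kept), the compared groups alone, array weights, a variance trend, the spread covariate and a random replicate block, and 0 to 1 when 1 sample was left out (1 without AT-I day 4 replicate 2 or 3, or AT-II day 4 replicate 4). In the settings named before the leave-outs, 0.215% (random replicate block) to 1.79% (array weights) of all genes passed as lower on AT-II. In the leave-outs that gave 1, the shares were 0.22%, 0.238% and 0.0928%, in the order named. Between surfaces at day 2 the count was 1, Isg15, with array weights, where 9.93% of all genes passed as higher on AT-I. The same held with a fixed replicate block that gave the averaged sample number 3 (4.75%). Same-numbered samples of the surfaces had deviations correlated at -0.339 to 0.642, over 0.1 in 6 of 8 pairs, and 4 of 8 correlated best with their own number. This check kept AT-II day 2 replicates 2 and 3 apart, although they were averaged in the fit. AT-I day 2 replicate 2 correlated at 0.505 with the first and 0.533 with the second, and the day 2 pair numbered 3 was at -0.258. The lowest pair, numbered 2 at day 4, does not involve them. The check therefore cannot settle whether the numbers follow rats. The replicate block changed no other call between surfaces, and the days, which used different rats, could not be fitted with a fixed block. With the spread covariate the median of the members was -0.74 on AT-I and 0.34 between surfaces at day 2. Parp9 between surfaces at day 2 reversed to 0.0627 with quantile normalization and 0.15 with the covariate, and Dtx3l to 0.0353 with the covariate. The causes were not tested. Signal over background was not analysed here, so the values of the lowest genes, Bst2, Oas2 and Cxcl9, are the least certain.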
